A study of Homo sapiens with 6 samples.

Results

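Antisense-named RNAs, with names ending in -AS1 or -AS2, are for the most part noncoding transcripts called after a gene on the opposite DNA strand, their sense gene. They were followed here in REH, an established human cell line of B-precursor acute lymphoblastic leukemia with the ETV6-RUNX1 fusion. All 6 libraries came from REH cells cultured for 24 h, 3 with the solvent DMSO and 3 with ML141 at 25 µM, which inhibits CDC42, a small GTPase, and the labels attribute them to 3 independent experiments. Members were chosen by their names and summed counts, as the entries of the deposited count table whose symbol ends in -AS1, -AS2 or -AS3 and whose raw counts sum to at least 120 over the 6 libraries, with EPB41L4A-AS1 and GNL3-AS1 left out by the rule. There were 161 members, 154 ending in -AS1, 7 in -AS2 and none in -AS3, out of 971 entries with such names and 26485 entries in all. A further 381 antisense-named entries had counts but fell under the limit or were left out, and 429 had none.

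Many such RNAs start close to the promoter of their sense gene and are read away from it, so that a single open promoter region gives transcripts in both directions. Others start inside or beyond the sense gene and run back through it, and their exons can then pair with the sense mRNA. Some are retained in the nucleus near their own locus, some host small nucleolar RNAs in their introns, and for most no function is established. The library kit did not mark the strand, so reads that fall where the exons of a member and its sense gene lie on top of each other cannot be told apart.

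The members held 176868 counts, 0.281% of all counts, and LRRC75A-AS1 alone held 32.4% of them. The median member had 358 counts over the 6 libraries, 28 members had at least 1000, and 40 had fewer than 200. Library totals ran from 8284299 to 12308039 counts, so that 1 count was worth 0.0754 to 0.13 CPM (the count as a share of the library total after TMM scaling), and intervals of counting error understate the error because reads copied by PCR are not independent. Of 12 B precursor markers, 11 were expressed in every library, and VPREB1 had 1 count in all. Of 4 T cell markers, 3 were at 0 in all libraries, while the myeloid gene MPO was at 24.8 to 41.8 CPM. CDC42 mRNA, a check of the target although ML141 acts on the protein, was 276, 276 and 280 CPM with DMSO and 207, 189 and 209 with ML141.

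Genes were placed with the GENCODE 29 annotation of GRCh38, which is the hg38 build. A total of 159 members were found there, 139 by name and 20 by another symbol of the same gene. In all 158 pairs that could be placed, the member and its sense gene lay on opposite strands. In 104 pairs the nearest annotated start sites of the 2 genes, over all their transcripts, lay within 2000 bases of each other, and in 84 within 500. Start distances of single pairs are measured in the same way, except in the printed windows, which use RefSeq starts. RefSeq starts of a pair can lie farther apart. Exon bases were shared in 88 pairs and not shared in 70, and 60 pairs had near starts with no shared exon base. RefSeq now gives 27 members a name ending in -DT, for divergent transcript, in place of -AS1.

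RefSeq promoter windows of 300 bases, 250 before to 50 after the start (GRCh38.p14), matched 110 members. In 16 of them the start of the sense gene lay inside the window of the member. The 8 windows below are those in which, in addition, both genes passed the test for a change with ML141, and they show the DNA between the 2 starts. Each is printed 5′ to 3′ on the strand of the member, and capitals mark the bases from the start of the sense gene to the last base before the start of the member. The first 4 pairs moved in opposite directions and the last 4 in the same direction. The RBM26-AS1 window is chr13:79406059-79406358 on the plus strand, with starts 54 bases apart. The SCAMP1-AS1 window is chr5:78360492-78360791 on the minus strand, 76 bases apart. The UBA6-AS1 window is chr4:67701028-67701327 on the plus strand, 123 bases apart. The ZNF674-AS1 window is chrX:46545240-46545539 on the plus strand, 69 bases apart. The DNAJC3-AS1 window is chr13:95676876-95677175 on the minus strand, 214 bases apart. The TPT1-AS1 window is chr13:45341095-45341394 on the plus strand, 162 bases apart. The ZBED5-AS1 window is chr11:10857967-10858266 on the plus strand, 164 bases apart. The ZNF561-AS1 window is chr19:9621232-9621531 on the plus strand, 250 bases apart.
RBM26-AS1: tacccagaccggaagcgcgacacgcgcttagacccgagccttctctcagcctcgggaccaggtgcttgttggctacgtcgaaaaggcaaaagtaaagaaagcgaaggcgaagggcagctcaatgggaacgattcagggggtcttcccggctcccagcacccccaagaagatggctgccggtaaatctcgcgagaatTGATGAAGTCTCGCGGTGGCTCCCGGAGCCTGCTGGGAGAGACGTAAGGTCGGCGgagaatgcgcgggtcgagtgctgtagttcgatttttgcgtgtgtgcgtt
SCAMP1-AS1: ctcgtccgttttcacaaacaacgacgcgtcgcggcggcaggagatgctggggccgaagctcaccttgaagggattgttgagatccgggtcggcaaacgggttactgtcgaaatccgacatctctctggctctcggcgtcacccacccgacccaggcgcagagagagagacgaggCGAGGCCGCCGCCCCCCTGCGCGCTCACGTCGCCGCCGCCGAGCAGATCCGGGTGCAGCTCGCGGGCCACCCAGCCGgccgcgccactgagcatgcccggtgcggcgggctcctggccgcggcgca
UBA6-AS1: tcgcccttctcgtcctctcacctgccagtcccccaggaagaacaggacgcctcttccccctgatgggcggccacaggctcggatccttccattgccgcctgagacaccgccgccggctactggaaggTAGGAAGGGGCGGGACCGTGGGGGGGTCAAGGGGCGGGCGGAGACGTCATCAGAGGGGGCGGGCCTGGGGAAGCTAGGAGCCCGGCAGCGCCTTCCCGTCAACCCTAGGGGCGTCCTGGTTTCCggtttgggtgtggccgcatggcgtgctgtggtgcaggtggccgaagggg
ZNF674-AS1: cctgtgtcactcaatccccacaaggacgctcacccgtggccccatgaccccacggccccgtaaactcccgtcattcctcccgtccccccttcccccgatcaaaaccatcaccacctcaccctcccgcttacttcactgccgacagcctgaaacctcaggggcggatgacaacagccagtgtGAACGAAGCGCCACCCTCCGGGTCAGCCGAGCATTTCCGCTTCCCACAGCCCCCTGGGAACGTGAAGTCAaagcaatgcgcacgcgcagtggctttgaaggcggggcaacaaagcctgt
DNAJC3-AS1: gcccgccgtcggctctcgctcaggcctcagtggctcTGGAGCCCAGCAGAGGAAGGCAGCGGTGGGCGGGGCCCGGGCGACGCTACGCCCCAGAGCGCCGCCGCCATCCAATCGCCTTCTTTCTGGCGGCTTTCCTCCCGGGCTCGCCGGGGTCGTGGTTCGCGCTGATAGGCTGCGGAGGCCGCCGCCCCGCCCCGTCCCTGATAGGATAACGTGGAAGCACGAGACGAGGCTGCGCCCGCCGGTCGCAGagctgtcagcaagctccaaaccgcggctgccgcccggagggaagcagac
TPT1-AS1: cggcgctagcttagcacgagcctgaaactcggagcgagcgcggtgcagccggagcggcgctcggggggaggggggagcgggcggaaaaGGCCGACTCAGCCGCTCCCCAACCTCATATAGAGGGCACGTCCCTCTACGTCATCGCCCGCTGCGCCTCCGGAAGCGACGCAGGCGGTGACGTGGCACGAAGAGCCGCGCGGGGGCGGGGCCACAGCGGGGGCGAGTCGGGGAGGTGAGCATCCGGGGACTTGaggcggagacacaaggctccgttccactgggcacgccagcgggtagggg
ZBED5-AS1: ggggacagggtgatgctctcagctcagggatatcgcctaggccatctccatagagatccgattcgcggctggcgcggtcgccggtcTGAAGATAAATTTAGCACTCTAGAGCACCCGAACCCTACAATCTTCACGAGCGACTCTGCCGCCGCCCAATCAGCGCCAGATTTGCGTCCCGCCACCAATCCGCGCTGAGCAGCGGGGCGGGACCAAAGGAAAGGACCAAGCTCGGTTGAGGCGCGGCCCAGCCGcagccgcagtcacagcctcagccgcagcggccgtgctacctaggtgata
ZNF561-AS1: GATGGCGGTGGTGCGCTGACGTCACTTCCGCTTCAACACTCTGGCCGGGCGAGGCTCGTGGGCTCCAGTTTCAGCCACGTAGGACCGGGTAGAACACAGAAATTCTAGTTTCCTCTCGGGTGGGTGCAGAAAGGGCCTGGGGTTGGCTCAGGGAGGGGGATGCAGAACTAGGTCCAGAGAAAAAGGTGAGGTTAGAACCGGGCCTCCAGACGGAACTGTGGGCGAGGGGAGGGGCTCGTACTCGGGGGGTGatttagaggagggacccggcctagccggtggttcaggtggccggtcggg

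Across the 110 windows the ratio of observed to expected CpG had a median of 0.81, against 0.58 over all 35116 RefSeq windows, and the median GC content was 64.7% against 58.7%. Members were chosen by their counts and the other windows were not, so the 2 sets are not matched for expression, here or for the motifs below. Motifs were searched on both strands by exact letters, and overlapping matches were allowed. A GC box (GGGCGG), the core of Sp1-type sites, was present in 64.5% of the members' windows and 45.0% of all windows, and in 6 of the 8 printed above. The ETS core CCGGAAG was present in 20% and 10.3%, the box CCAAT in 40.0% and 34.6%, and the box TATAAA in 4.55% and 11.5%. The AP-1 site TGACTCA was present in 0.909% of the members' windows and 4.95% of all windows. The CRE TGACGTCA was present in 2.73% and 1.85%, among them the ZNF561-AS1 window, where it starts at base 17. These matches describe letters and not binding. Among windows of members that passed the test, 27 of 37 higher and 6 of 10 lower members had a GC box, as did 38 of 63 members that did not pass.

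With ML141, 58 of the 161 members were higher, 14 were lower and 89 did not pass the test (edgeR quasi-likelihood, Benjamini-Hochberg adjusted p under 0.05 over all 11454 genes tested). The share called was 44.7%, against 54.4% of all genes tested. By direction, 36.0% of members were higher and 8.70% lower, against 26.7% and 27.7% of all genes. The median log2 fold change of the members was 0.37, from -1.70 to 2.25, and that of all genes was 0.02. The median standard error was 0.216 for members and 0.123 for all genes. Members are low in counts, and among the 3521 other genes between the 10th and 90th percentile of the members' summed counts 32.2% were higher and 17.3% lower, with a median of 0.16. In bulk RNA a change in the make-up of the culture and a change per cell cannot be told apart.

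**Figure D1:**
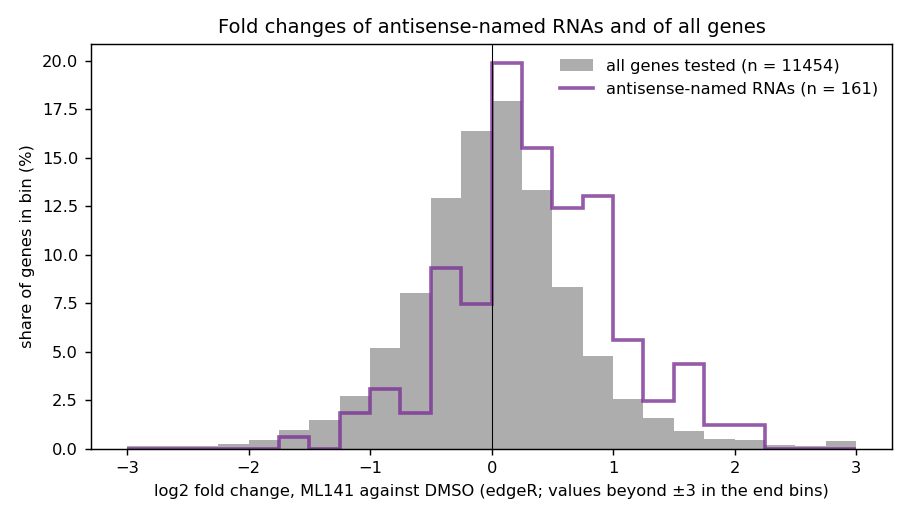
Share of genes (%) in bins of the log2 fold change with ML141 against DMSO, for all 11454 genes tested (filled) and for the 161 antisense-named RNAs (line). The line lies to the right of the filled bars, with medians of 0.37 and 0.02.

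Scaling moved these figures. Upper-quartile factors raised the median of all genes by 0.10 on the log2 scale and library totals by 0.17. Since such factors move every gene alike, they leave the distance of 0.35 between the 2 medians as it is. Of the members called, 80.6% were higher with TMM and 87.6% with library totals, against 49.1% and 66.1% over all genes. The limit of 120 counts also bears on the direction, since 22 members had fewer than 60 counts with DMSO and 2 had fewer than 60 with ML141. A member this low in 1 group reached the limit through the other group. Of the 22, 16 were called higher, and both of the 2 were called lower. Among the 137 members with at least 60 counts in each group, 42 (30.7%) were higher and 12 (8.76%) lower, with a median of 0.25. Their share of higher calls was thus near the 26.7% of all genes and under the 32.2% of other genes of like counts, and their share of lower calls was under both. Neither comparison set had a minimum in each group, so they are not filtered like these 137 members. In each library, the median level of the members over their own DMSO mean was -0.06, 0.00 and 0.04 with DMSO and 0.22, 0.38 and 0.39 with ML141, on the log2 scale. The groups did not overlap in this summary, but it covers all members, with the 22 that reached the limit through ML141 among them. Each member is scaled to its own DMSO mean, so the DMSO libraries are centred by construction. The summary was not made for the 137 members alone.

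Groups did not overlap in 68 members with ML141 above and 15 with ML141 below, 51.6% in all, against 61.2% of all genes tested (30.5% above and 30.7% below). Changes of over 2-fold passed in 24 higher and 4 lower of the 161 members, where 6.76% and 6.24% of all genes tested did so. The 24 are in part selected by the count limit. The 10 largest rises named below include 8 members with fewer than 60 counts with DMSO. Other noncoding classes under the same count limit differed among themselves. Of 66 LINC entries, 35 were higher and 6 lower with a median of 0.51. Of 22 small RNA host genes (SNHG and MIR hosts), 7 were higher and 8 lower with a median of -0.15. Just inside the limit stood MORF4L2-AS1, MEF2C-AS1 and ARHGAP5-AS1 with 120, 123 and 126 counts, and just outside STAM-AS1, CHKB-AS1 and TMEM44-AS1 with 119, 115 and 114.

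The most abundant member was LRRC75A-AS1, now named SNHG29, which hosts small nucleolar RNAs in its introns (chr17:16438822-16478678, plus strand). It was at 649, 552 and 592 CPM with DMSO and 1357, 1026 and 1080 CPM with ML141. All 3 ML141 libraries were above all 3 DMSO libraries, with replicate 1 the highest of each group, and the log2 fold change was 0.95 ± 0.11 (SE, edgeR adjusted p = 2.22e-05). Its namesake LRRC75A stayed between 3.32 and 4.24 CPM over the 6 libraries and did not pass (edgeR adjusted p = 0.73).

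FGD5-AS1 and OIP5-AS1 followed in abundance and moved down. FGD5-AS1 was at 225, 209 and 216 CPM with DMSO and 140, 161 and 167 with ML141, a log2 fold change of -0.47 ± 0.09 (edgeR adjusted p = 0.000629). FGD5 itself was at 0 in 5 libraries and had 1 count in the other, so the sense gene was close to silent. OIP5-AS1, a conserved RNA also called cyrano, was at 157, 161 and 163 CPM with DMSO and 115, 114 and 132 with ML141. Its log2 fold change was -0.42 ± 0.08 (edgeR adjusted p = 0.00122), and OIP5, which encodes a centromere protein, fell with it from 24.6, 24.7 and 26.7 CPM to 13.4, 13.9 and 14.0.

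Most of the other abundant members were higher. THAP9-AS1 was at 66.9, 66.0 and 68.5 CPM with DMSO and 107, 82.1 and 101 with ML141. PSMD5-AS1, which GENCODE lists as a transcribed pseudogene and RefSeq as CUTALP, was at 45.6, 44.6 and 45.8 CPM with DMSO and 106, 103 and 100 with ML141, with groups far apart and a log2 fold change of 1.18 ± 0.08 (edgeR adjusted p = 6.23e-07). WAC-AS1 was at 26.6, 26.0 and 27.4 CPM and then at 39.1, 41.6 and 43.2, beside a rise of WAC, an adaptor of histone H2B ubiquitination. These groups did not overlap. BZRAP1-AS1, now TSPOAP1-AS1, was at 23.9, 22.7 and 21.7 CPM with DMSO and 59.2, 55.5 and 57.3 with ML141, but 69.4% of its exon bases lie under exons of other genes, RNF43 among them, where the reads cannot be assigned to either gene. The levels of OTUD6B-AS1 overlapped between the groups, with 38.2 to 51.5 CPM over the 6 libraries, and did not pass (edgeR adjusted p = 0.151).

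The 10 members named for the largest rises include 8 of the 22 with fewer than 60 counts in DMSO, and the exceptions are PSMG3-AS1 and PPP3CB-AS1. The other 8 are in the set through their counts with ML141, so the size of their rise was in part selected by the limit and is given as a description. The highest value was that of RAP2C-AS1 (chrX:132217147-132432862, plus strand), which starts 383 bases upstream of RAP2C, a Ras-related GTPase gene. It had 2, 7 and 10 counts with DMSO and 34, 45 and 38 with ML141, or 0.259, 0.725 and 0.964 CPM against 3.15, 3.39 and 3.27. The groups lay far apart, and the log2 fold change was 2.25 ± 0.34 (edgeR adjusted p = 0.000177). RAP2C was also higher, by 0.26 ± 0.10 on the log2 scale (edgeR adjusted p = 0.043), a rise of smaller size with groups that lay close together. The member shares no exon base with another annotated gene. MMP25-AS1, named after a membrane-anchored matrix metalloproteinase, was at 0.908, 0.933 and 0.964 CPM with DMSO and 2.96, 4.45 and 4.30 with ML141, a log2 fold change of 2.05 ± 0.29 (edgeR adjusted p = 0.0001). The groups did not overlap. Both members with a change over 4-fold, these 2, had fewer than 60 counts with DMSO, 19 and 26.

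The next 8 rises lay between 1.55 and 1.88 on the log2 scale, and in each of them the groups did not overlap. SRP14-AS1, which starts 123 bases from the gene of a signal recognition particle subunit, was at 1.43, 1.45 and 2.12 CPM with DMSO and 6.58, 5.73 and 6.45 with ML141. PSMG3-AS1, beside a proteasome assembly chaperone gene, was at 7.26, 7.15 and 8.19 CPM and then at 22.0, 30.8 and 23.9. PPP3CB-AS1, beside the gene of a calcineurin catalytic subunit, was at 3.37, 5.49 and 4.63 CPM and then at 12.6, 15.7 and 17.1. In these 3 members every ML141 library stood at more than 2 times the highest DMSO library. USP30-AS1, named after a mitochondrial deubiquitinase gene, was at 1.30, 0.518 and 1.54 CPM with DMSO and 4.08, 3.09 and 3.78 with ML141. MCPH1-AS1, named after the microcephalin gene, was at 2.07, 1.35 and 0.868 CPM and then at 3.71, 4.90 and 4.73. TMEM9B-AS1 was at 1.82, 2.07 and 2.22 CPM and then at 5.37, 8.37 and 5.33. The sense genes PPP3CB, USP30, MCPH1 and TMEM9B did not pass the test. SDCBP2-AS1 was at 1.43, 1.97 and 1.45 CPM with DMSO and 5.56, 4.22 and 4.56 with ML141, while SDCBP2 had 1 count over all libraries. TSPEAR-AS1 was at 0.389, 0.725 and 1.45 CPM and then at 1.48, 3.62 and 3.35, a narrow gap between the groups. Its log2 fold change was 1.66, and 2.29 without DMSO replicate 3.

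**Figure D2:**
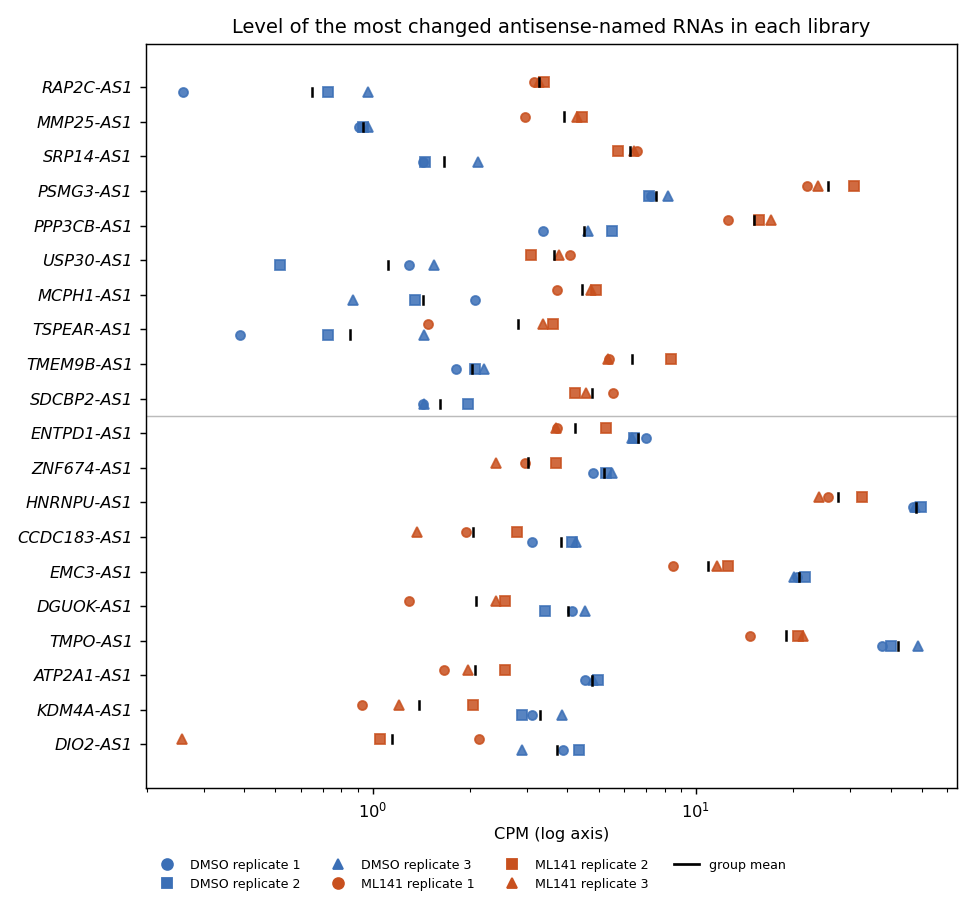
CPM on a log axis in each of the 6 libraries for the 10 higher (above the line) and 10 lower antisense-named RNAs with the largest fold change among those called with groups that do not overlap. Symbols give the replicate, colours the group and short bars the group mean, and no blue symbol crosses an orange one within a row.

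DIO2-AS1, which starts 53 bases inside the gene of a thyroid hormone deiodinase, had the lowest log2 fold change. It and KDM4A-AS1 are the 2 members with fewer than 60 counts with ML141, 40 and 51, and so reached the limit through DMSO. It was at 3.89, 4.35 and 2.89 CPM with DMSO and 2.13, 1.06 and 0.258 with ML141, the last from 3 counts. The log2 fold change was -1.70 ± 0.45 (edgeR adjusted p = 0.00665), and -2.42 without ML141 replicate 1, which stood highest of its group. DIO2 did not pass.

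TMPO-AS1 was the most abundant of the members that fell by over 2-fold. It lies at chr12:98512973-98516422 on the minus strand, starts 358 bases inside TMPO and shares 542 exon bases with it. It was at 37.7, 40.2 and 48.8 CPM with DMSO and 14.7, 20.7 and 21.5 with ML141, with groups that did not overlap and a log2 fold change of -1.15 ± 0.15 (edgeR adjusted p = 6.44e-05). TMPO, which encodes lamina-associated polypeptide 2, fell with it from 1109, 1117 and 1106 CPM to 592, 580 and 667. HNRNPU-AS1, a name that RefSeq now lists as an older name of HNRNPU, fell from 46.9, 49.5 and 47.5 CPM to 25.7, 32.7 and 24.0. HNRNPU, a nuclear RNA-binding protein gene, fell from 2329, 2393 and 2233 CPM to 1444, 1410 and 1335, so the log2 fold changes of this pair, -0.80 and -0.73, were close, and how far the 2 entries share reads was not tested.

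The other large falls were in members of lower level. ATP2A1-AS1, named after a muscle calcium pump gene with under 1 CPM here, was at 4.54, 4.97 and 4.82 CPM with DMSO and 1.67, 2.56 and 1.98 with ML141. EMC3-AS1 was at 20.6, 21.8 and 20.1 CPM and then at 8.52, 12.6 and 11.6, while EMC3, of the endoplasmic reticulum membrane complex, did not pass (edgeR adjusted p = 0.396). In both the groups stood clear of each other. DGUOK-AS1 was at 4.15, 3.42 and 4.53 CPM with DMSO and 1.30, 2.56 and 2.41 with ML141, and its call was lost without DMSO replicate 3. CCDC183-AS1 was at 3.11, 4.15 and 4.24 CPM and then at 1.95, 2.79 and 1.38, and its call was lost without DMSO replicate 2 or 3 or ML141 replicate 3. ENTPD1-AS1, named after the gene of the ectonucleotidase CD39, was at 7.0, 6.43 and 6.36 CPM and then at 3.71, 5.28 and 3.70. It missed the threshold with upper-quartile factors (edgeR adjusted p = 0.0543) and with library totals (edgeR adjusted p = 0.0814), and also without DMSO replicate 1 or 2 or ML141 replicate 3. In these 3 members the groups did not overlap.

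Of the 161 members, 160 had an entry for a sense gene, and 138 of those entries were tested. Among the 138 sense genes 36 were higher, 42 were lower and 60 did not pass, with a median log2 fold change of 0.08. The shares of 26.1% higher and 30.4% lower were near the 26.7% and 27.7% of all genes tested. Their balance turned with the scaling, to 51 higher and 32 lower with upper-quartile factors and 59 and 30 with library totals. In 21 pairs both genes passed in the same direction, 16 higher and 5 lower, and in 17 pairs both passed in opposite directions. In 27 pairs the member passed and its sense gene did not, in 40 the sense gene passed and the member did not, and in 33 neither did. Over the 138 pairs the log2 fold changes of member and sense gene had a Pearson r of 0.03 and a Spearman rho of 0.06, as a description of pairs that share the same 6 libraries.

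**Figure D3:**
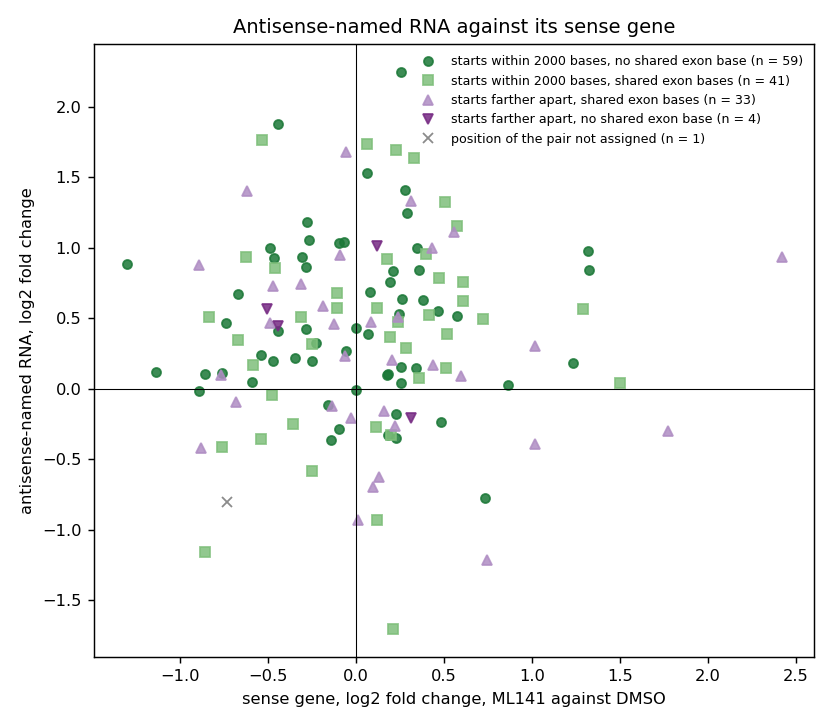
Log2 fold change with ML141 against DMSO of each antisense-named RNA (vertical axis) and of its sense gene (horizontal axis) for the 138 pairs with both genes tested, with symbols for start distance and shared exon bases. The points form a cloud with no slope, shifted upward.

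Members were then set apart by position. With starts within 2000 bases, 43 of 104 members (41.3%) were higher and 7 lower, with a median of 0.43. With starts farther apart, 15 of 54 (27.8%) were higher and 6 lower, with a median of 0.28. In the 60 near pairs with no shared exon base, 26 members (43.3%) were higher and 1, ZNF674-AS1, was lower. In the 44 near pairs with shared exon bases, 17 (38.6%) were higher and 6 lower. Over all members 36.0% were higher and 8.70% lower, against 26.7% and 27.7% of all genes tested. Members that reached the limit through ML141 were not set apart in these classes. Differences between these classes were not tested. Over pairs with shared exon bases, 13 moved the same way and 7 in opposite ways, and over pairs with none, 7 and 10. Members with under 10% of their exon bases under exons of other genes numbered 90, of which 35 were higher and 7 lower.

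The 17 opposite pairs had the member higher and the sense gene lower in 15 and the reverse in 2. In the 138 pairs as a whole 54 members were higher and 11 lower, so most pairs with a called member have it higher, whatever the sense gene did. GMDS-AS1 and SRP14-AS1 of these pairs had fewer than 60 counts with DMSO, and KDM4A-AS1 had fewer than 60 with ML141. They reached the limit through the other group, and a change of scaling or a left-out library does not undo that. Among the 137 members with at least 60 counts in each group, 13 pairs were opposite, 12 of them with the member higher. All log2 fold changes here are relative to TMM scaling. Of the 17, 9 met the rule in every alternative setting and with each library left out, and 11 did so with library totals. The 9 were the pairs of EIF3J-AS1, KDM4A-AS1, NIFK-AS1, PAXIP1-AS2, PCBP1-AS1, PSMA3-AS1, PSMG3-AS1, SRP14-AS1 and STARD7-AS1. Of the 17 pairs, 11 remained without DMSO replicate 2.

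Of the pairs with the member higher, 3 belong to proteasome genes and 1 to SRP14. PSMA3-AS1 was at 45.8, 43.9 and 42.8 CPM with DMSO and 68.9, 62.3 and 64.5 with ML141, while PSMA3, a subunit of the proteasome core, fell from 168, 171 and 162 CPM to 135, 99.3 and 119. They share no exon base, and neither gene overlapped between the groups. PSMG3 fell from 38.6, 45.5 and 46.5 CPM to 28.5, 32.2 and 29.7, with a log2 fold change of -0.53 ± 0.11 (edgeR adjusted p = 0.00158) beside 1.76 ± 0.16 for PSMG3-AS1 (edgeR adjusted p = 4.13e-06). SRP14 fell from 193, 191 and 202 CPM to 154, 131 and 147, by -0.44 ± 0.08 beside 1.88 ± 0.24 for SRP14-AS1. PSMG3-AS1 rose by more than PSMG3 fell, on the log2 scale. SRP14-AS1 reached the count limit through ML141, so the size of its rise was in part selected and is not set against the fall of SRP14. PSMG3-AS1 shares exon bases with PSMG3, and reads in those bases cannot be told apart. PSMD5, a chaperone of proteasome assembly, was at 117, 116 and 106 CPM and then at 105, 87.4 and 86.7, a small fall (edgeR adjusted p = 0.0293) that was lost with upper-quartile factors or library totals, and without DMSO replicate 1 or 2 or ML141 replicate 2 or 3.

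A further 5 of the 9 pairs named above also had the member higher. EIF3J-AS1 was at 7.13, 9.12 and 7.42 CPM with DMSO and 14.5, 15.6 and 15 with ML141, beside a fall of the translation initiation factor gene EIF3J from 327, 312 and 281 CPM to 255, 198 and 214. PCBP1-AS1 was at 11.5, 15.6 and 13.2 CPM and then at 27.9, 23.4 and 22.4, beside a fall of PCBP1, a poly(C)-binding protein gene, from 360, 370 and 379 CPM to 270, 282 and 252. All 4 of these genes had groups that did not overlap. NIFK-AS1 was at 9.46, 8.08 and 8.39 CPM and then at 13, 13.4 and 16.4, while NIFK, whose nucleolar protein binds Ki-67, fell from 195, 178 and 169 CPM to 159, 110 and 122. PAXIP1-AS2 was at 16.7, 18.2 and 13.7 CPM and then at 27.7, 29.6 and 32.1, while PAXIP1, a DNA damage response gene, fell from 80.6, 83.5 and 78.4 CPM to 43.8, 41.9 and 45.1. PAXIP1-AS1, the other RNA with that name, did not pass (edgeR adjusted p = 0.955). STARD7-AS1 was at 2.72, 4.97 and 4.53 CPM and then at 7.60, 8.30 and 7.82, while STARD7, a phosphatidylcholine transfer protein gene, fell from 465, 468 and 428 CPM to 310, 292 and 278.

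In the pairs of KDM4A-AS1 and ZNF674-AS1 the member fell and the sense gene rose. KDM4A-AS1 was at 3.11, 2.90 and 3.86 CPM with DMSO and 0.926, 2.04 and 1.20 with ML141, a log2 fold change of -1.22 ± 0.31 (edgeR adjusted p = 0.00541). It reached the count limit through DMSO, so the size of its fall was in part selected. KDM4A, a histone demethylase gene, rose from 89.3, 91.5 and 83.4 CPM to 154, 153 and 137, by 0.75 ± 0.09 on the log2 scale (edgeR adjusted p = 1.95e-05). The 2 genes share 425 exon bases, and both moved with groups that did not overlap. ZNF674-AS1 was at 4.80, 5.29 and 5.50 CPM and then at 2.96, 3.70 and 2.41, and ZNF674, a zinc finger gene, rose from 4.41, 3.52 and 4.05 CPM to 7.32, 5.73 and 6.88. Neither gene overlapped between the groups, and the call of the member was lost without ML141 replicate 3.

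**Figure D4:**
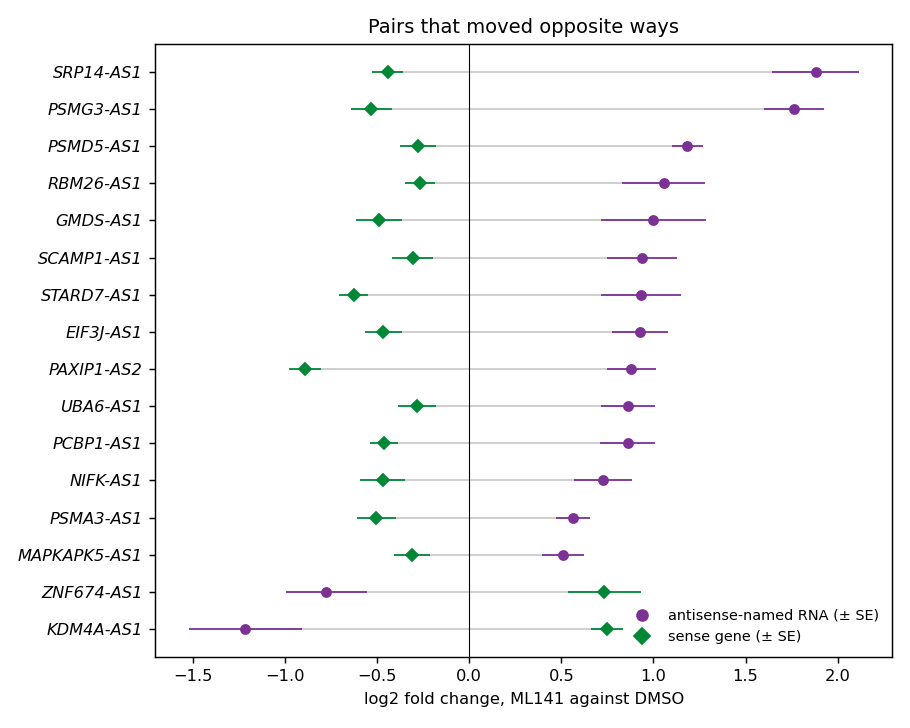
Log2 fold change with ML141 against DMSO of the antisense-named RNA (circles) and of its sense gene (diamonds) in 16 of the 17 pairs that passed in opposite directions, with bars of 1 standard error from edgeR. In all but 2 of these pairs the circle lies to the right of 0, from 0.51 to 1.88, and in ZNF674-AS1 and KDM4A-AS1 to the left.

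The other opposite pairs rested on smaller or less even changes. GMDS-AS1 was at 2.33, 1.45 and 1.74 CPM and then at 2.96, 4.68 and 3.18, and its call was lost without DMSO replicate 2. MAPKAPK5-AS1 was at 25.3, 23.8 and 24.5 CPM and then at 39.0, 31.3 and 34.5, and shares 792 exon bases with MAPKAPK5, a kinase gene that was at 52.6 to 59.8 CPM and then at 43.6 to 46.7. Of the pairs with printed windows, RBM26-AS1 was at 2.46, 2.69 and 2.12 CPM with DMSO and 5.47, 4.30 and 5.42 with ML141. RBM26, an RNA-binding protein gene, was at 188, 200 and 171 CPM and then at 158, 153 and 154. SCAMP1-AS1 was at 4.67, 4.66 and 6.17 CPM and then at 11.0, 10.6 and 8.34. UBA6-AS1 was at 9.59, 12.1 and 12.3 CPM and then at 22.5, 18.3 and 21.6. In these 3 the groups of the member did not overlap, while those of SCAMP1, a vesicle carrier protein gene, and of UBA6, a ubiquitin-activating enzyme gene, overlapped. The falls of MAPKAPK5, RBM26, SCAMP1 and UBA6 were not called with upper-quartile factors or library totals, and that of GMDS not with library totals. The RBM26 pair was also lost without DMSO replicate 2 and the MAPKAPK5 pair without DMSO replicate 2 or 3. The UBA6 pair was lost without DMSO replicate 1 or 2 and the SCAMP1 pair without DMSO replicate 1 or 3, and both without ML141 replicate 2 or 3.

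Among the 16 pairs in which both genes rose, PDCD4-AS1 was at 1.56, 1.76 and 2.12 CPM with DMSO and 3.33, 4.30 and 3.18 with ML141. PDCD4, an inhibitor of translation initiation, rose from 61.7, 46.7 and 52.3 CPM to 153, 128 and 119. The starts of this pair lie 426 bases apart and no exon base is shared. JHDM1D-AS1 was set beside KDM7A, the current name of JHDM1D, a histone demethylase gene. The member was at 1.17, 1.14 and 2.22 CPM and then at 2.69, 3.17 and 2.41, and its call was lost with DESeq2 and without DMSO replicate 1 or 2 or ML141 replicate 2 or 3, while KDM7A rose from 27.4, 20.4 and 17.6 CPM to 71.0, 47.6 and 44.1. Both PDCD4-AS1 and JHDM1D-AS1 had fewer than 60 counts with DMSO, so the size of their rise was in part selected by the limit. Of the 137 members with at least 60 counts in each group, 12 rose together with their sense gene.

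TPT1-AS1 was at 4.02, 4.15 and 5.21 CPM with DMSO and 7.69, 7.77 and 7.31 with ML141. TPT1, which encodes the abundant protein TCTP, was at 2716, 2252 and 2358 CPM and then at 4647, 2808 and 3712, with ML141 replicate 2 close above DMSO replicate 1. DNAJC3-AS1 was at 8.17, 9.02 and 7.62 CPM and then at 16.3, 13.4 and 14.9, and the groups of DNAJC3, a co-chaperone gene of the endoplasmic reticulum, overlapped. ZBED5-AS1 was at 3.63, 3.83 and 4.05 CPM and then at 8.34, 7.62 and 7.22, and ZNF561-AS1 at 8.95, 9.33 and 9.35 and then at 15.7, 13.9 and 18.1. These 4 members, whose windows are printed above, had groups that did not overlap. The other pairs in which both rose were those of ATE1-AS1, CARD8-AS1, FBXL19-AS1, RAP2C-AS1, SBF2-AS1, SH3BP5-AS1, TNRC6C-AS1, WAC-AS1, WDFY3-AS2 and ZBED3-AS1, with member log2 fold changes from 0.62 to 2.25. The 5 pairs in which both fell were those of HNRNPU-AS1, TMPO-AS1, OIP5-AS1, NNT-AS1 and RNASEH1-AS1, with member values from -0.41 to -1.15. The falls of NNT-AS1 and RNASEH1-AS1 were not called with library totals. Counting left-out libraries, the NNT pair met the rule in 13 of 14 alternative settings and the RNASEH1 pair in only 6. The RNASEH1 pair was lost also with upper-quartile factors and with no filter. It was lost too without DMSO replicate 1, 2 or 3 or ML141 replicate 1 or 3. Of the 21 pairs that moved the same way, 12 did so in every alternative setting and with each library left out. The rise of RAP2C was not called with DESeq2, nor without DMSO replicate 2 or 3 or ML141 replicate 1 or 3.

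Levels of different genes were compared per kilobase of exon. In the 137 tested pairs with exon lengths, the member in DMSO had a median of 18.5% of the CPM per kilobase of its sense gene, and 24 members were above it. LRRC75A-AS1 was at 253 CPM per kilobase against 1.35 for LRRC75A. PSMD5-AS1 was at 12.2 against 32.8 for PSMD5, and OIP5-AS1 at 15.3 against 20.5 for OIP5. The ratio of member to sense gene was then compared between groups in all 160 pairs, as log2 of (CPM + 0.5) over (CPM + 0.5). The difference between ML141 and DMSO had a median of 0.33 and ran from -1.88 to 2.21. An exact 2-sided permutation test of 3 libraries against 3 cannot go below p = 0.1. That value was reached in 98 pairs, 74 with a higher ratio and 24 with a lower ratio with ML141, and the smallest value after adjustment over the pairs was 0.163, so no single pair passed by this test. The 160 pairs include members that reached the count limit through ML141, and sense genes too low to be tested. Where the sense gene was at or near 0, as FGD5 was, the ratio followed the member alone. No such share was computed over other pairs of genes, so the split by direction is only a description.

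**Figure D5:**
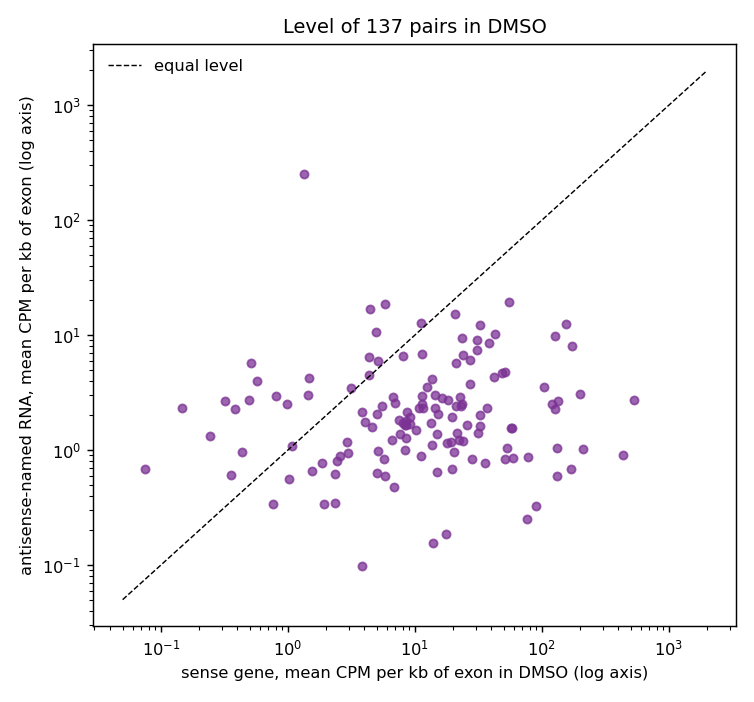
Mean level of 3 DMSO libraries in CPM per kilobase of exon, log axes, of each antisense-named RNA (vertical) against its sense gene (horizontal) in 137 pairs, with a dashed line at equal level. Most points lie under the line, and LRRC75A-AS1 is the point at 253.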

How the data were processed

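Per the labels' protocols, total RNA was made into Illumina TruSeq RNA v2 libraries, a kit that does not mark the strand. The deposited values are raw counts for each gene symbol, with 1 column per library, matched to samples through the sample descriptions. The submitters' processing notes name hg38 as the build, and as tools featureCounts, Bowtie2, DESeq2, Picard, Trimmomatic and bcl2fastq 2.19. The gene annotation with its strand option is not given in the sources used here.

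Counts were filtered with filterByExpr (minimum count 10, minimum total 15), given TMM factors and tested in R 4.3.3 by the glmQLFit and glmQLFTest functions of edgeR 4.0.16, 2-sided, group as the only term, on 11454 genes of all 6 libraries. P-values were adjusted by Benjamini-Hochberg over all genes tested, with a threshold of 0.05. The standard error is the log2 fold change over the square root of F. Tested on simulated data with 11454 genes, the fit recovered 96% of 2-fold and 100% of 4-fold changes and called 0.18% of unchanged genes. Changes were planted in few genes, up and down in equal number, with mean counts at or above the members' limit. Recovery was not split by count, so the rate for members of low counts is not known. A change of most genes at once was not simulated. Libraries within a group differed by a chi-square of 2.9 to 18.4 per degree of freedom, so none was a duplicate. The sample descriptions give libraries of the same replicate number in both groups a shared tag, and the series text speaks of 3 experiments. The numbers were therefore taken as pairs in the replicate block, while the main fit and the permutation test are unpaired. Deviations of paired libraries from their group means correlated by 0.37, 0.08 and 0.18. Those of unpaired libraries correlated by -0.37 to 0.29, so these values do not set the pairs apart. A count of 0 allows up to 3 counts, 0.226 to 0.389 CPM by library.

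The members, the lists and the tests were chosen with earlier results of these data known. Sense genes were found by name or by an older or current symbol. RPARP-AS1 has no sense entry here, and HNRNPU-AS1 and LHX4-AS1 were not placed. Values are given for the 10 members with most counts, the 10 higher and 10 lower calls of largest fold change with groups that do not overlap, opposite pairs (1 of which is counted but not reported here), calls over 4-fold and, chosen after their values were seen, some pairs that moved together. Alternatives were library totals, upper-quartile or DESeq2 size factors, no or a stricter filter (mean count 10 per group, 1 CPM in 3 libraries), a replicate block, DESeq2 1.42.0, limma-voom 3.58.1, each library left out, and other member limits.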

Additional observations from a re-analysis of the deposited data

How the results depend on the processing

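The count of higher members stayed within 1.5 times 58, from 52 to 78, under each scaling, filter, test and left-out library, and that of lower members was 11 to 17 against 14. Their median was 0.47 with upper-quartile factors, 0.54 with library totals and 0.25 with at least 60 counts in each group, a limit chosen after seeing the data. The balance of the sense genes, 36 higher and 42 lower, turned to 51 and 32 with upper-quartile factors and 59 and 30 with library totals, where 30 and 39 pairs moved the same way and 14 and 15 in opposite ways. With 1 library left out, pairs that moved in opposite ways numbered 11 to 17, with 11 without DMSO replicate 2. At a minimum of 600 counts, 26 of 52 members were higher and 6 lower. Among the 90 members little covered by other exons, 35 were higher and 7 lower, with 11 same and 12 opposite pairs. Pairs with no shared exon base gave 7 same and 10 opposite, and those of them with near starts, a class added after seeing the data, 7 and 9. Same pairs thus outnumber opposite ones in the full set and not in these subsets. No named member changed direction, and OTUD6B-AS1 passed with upper-quartile factors, with library totals and without ML141 replicate 2. With the replicate number as a block, 65 members were higher and 15 lower, which includes all 72 calls made without it, 29 pairs moved the same way and 20 in opposite ways. The block changed no call of a named member. Depth limits the 40 members with fewer than 200 counts.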

Other observations

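Some further members passed the test while their sense gene did not, and are named here after their values were seen. SATB1-AS1, which starts 151 bases from SATB1, a chromatin organizer of lymphoid cells, was at 7.52, 6.22 and 7.71 CPM with DMSO and 15.6, 13.1 and 15.4 with ML141 (log2 fold change 1.04 ± 0.16, edgeR adjusted p = 0.000182). SATB1 stayed between 415 and 497 CPM over the 6 libraries, with groups that overlapped. ZEB1-AS1, beside a zinc finger repressor gene, was at 9.72, 9.64 and 10.4 CPM and then at 13.5, 13.8 and 15.7. GABPB1-AS1, which starts 59 bases from the gene of an ETS-partner subunit, was at 13.4, 20.4 and 22.8 CPM and then at 30.7, 45.4 and 41.2, while GABPB1 did not pass (edgeR adjusted p = 0.645). The groups did not overlap in these 3 members, and none of them shares an exon base with its sense gene.

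In other pairs only the sense gene passed. BOLA3, a gene of iron-sulfur cluster assembly, fell by 1.13 on the log2 scale, while BOLA3-AS1 was at 2.72, 2.49 and 2.60 CPM with DMSO and 2.32, 2.87 and 3.27 with ML141, with groups that overlapped. H1FX, a linker histone gene, rose by 1.5 on the log2 scale, while H1FX-AS1 overlapped between the groups at 1.04 to 4.37 CPM. Whether member and sense gene differed in these pairs could not reach significance by the exact permutation test of their ratio, whose smallest p is 0.1.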
